A study of Mus musculus with 4 samples.

Results

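The genes described here encode axon guidance ligands and their receptors, and they were read in cultured Py8119 cells, which come from a mammary gland tumour of a C57BL/6 mouse and have a phenotype that the labels give as mesenchymal-like. The members are the protein-coding genes of the deposited table whose symbols name an ephrin, an Eph receptor, a semaphorin of classes 3 to 7, a plexin, a neuropilin, a netrin, an Unc5 receptor, a Slit, a Robo or a teneurin. This gave 71 of the 50600 genes in the table. RNA sequencing was done on 2 libraries titled hygro, whose genotype is given as control, and on 2 titled Mtss1, whose genotype is given as Mtss1 overexpression. Cells of both groups were grown in IMDM with fetal bovine serum and received no treatment. The vector, the promoter that drives Mtss1, and whether each population is a clone or a pool are not given in the sources used here.

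Guidance molecules were named for steering growth cones and are used by many migrating cells. Ephrins are membrane-bound ligands that signal on contact through Eph receptor tyrosine kinases, and the ephrin-bearing cell receives a signal in return. Semaphorins act through plexins, which carry a GTPase-activating domain inside the cell, and the secreted class 3 members mostly need a neuropilin as co-receptor. Slits bind Robo receptors, netrins bind the Dcc, neogenin and Unc5 receptors, and teneurins are large adhesion proteins that bind latrophilins across cell contacts. Several of these families shape ducts and vessels in the mammary gland. Many of the receptors act on the actin cytoskeleton.

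Values are in CPM, reads scaled to a library of close to 1000000, and the libraries hold 15594209 to 22081639 reads as recovered from the read steps in the values. Mtss1 itself read 54.5 and 50.5 CPM in hygro 1 and 2 and 118 and 119 CPM in Mtss1 1 and 2, as the labels state. All 12 mesenchymal markers reached 1 CPM (4 rose, 7 fell), with sums of 15225 to 15361 CPM in hygro and 12969 to 13139 CPM in Mtss1. Of 10 epithelial markers, Krt8 and Krt18 alone reached 1 CPM, with sums of 849 to 893 CPM and 601 to 603 CPM, and Epcam was at 0 in all 4 libraries. Of 10 endothelial markers 2 reached 1 CPM, and all 10 summed to 5.49 to 6.81 CPM in hygro and 5.17 to 6.13 CPM in Mtss1. Neuronal markers summed to 23.7 to 24.3 CPM in hygro and 87.6 to 92.0 CPM in Mtss1: 3 of the 12 rose (Map2, Syn1 and Syt1), and Rbfox3, Snap25, Elavl4 and Dcx were at 0 in every library. Schwann and glial markers summed to 2.30 to 2.90 CPM and 0.882 to 1.13 CPM. Of 12 immune markers, 2 reached 1 CPM; the sum of all 12 was 21.2 to 22.3 CPM in hygro and 96.1 to 96.3 CPM in Mtss1, with Cd68 at means of 18.6 and 92.2 CPM, while Cd3e and Itgam were at 0. The part of these markers in the results below was not tested. Whether the libraries of a group are separate cultures is not stated, and every p-value below therefore reflects library-to-library spread alone, which could be technical.

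Guidance genes changed in both directions, and 7 of the 16 families hold genes called each way, 6 of them also without the low genes named below. Of the 71 members, 44 reached 1 CPM in at least 2 libraries and were tested. In the Mtss1 libraries 17 of them were higher and 21 were lower (limma, adjusted p under 0.05), and 6 did not pass. Together that is 86.4% of the tested members, beside 66.1% of all 12510 genes tested. By direction it is 38.6% higher and 47.7% lower, beside 31.9% and 34.2% of all genes. The counts by family below are to be read beside these shares of all genes. Called changes of 2-fold or more, on the scale of log2(CPM + 1), were found in 12 members, 5 up and 7 down, which is 27.3% of those tested beside 8.27% of all genes, and 3 of the 5 up are among the low genes named next. Of the tested members, 5 were under 1 CPM in some library and would not have passed the filter on the hygro libraries (Sema4a, Sema4d, Sema4g, Epha4 and Epha5). Sema4g reached 1.13 CPM in hygro 1. The others passed through the Mtss1 libraries alone, so that they had to differ. Among the 39 members at 1 CPM in all libraries, 12 were higher (30.8%) and 21 lower (53.8%), beside 31.2% and 34.7% of all genes at that level, so the share that rose was near the background. Changes of 2-fold or more were then 2 up and 7 down, 23.1% beside 5.92% of all genes at that level. The hygro and Mtss1 libraries did not overlap for 43 of the 44, beside 81.6% of all genes. The median log2 fold change of the tested members was -0.12 and that of all genes -0.01, and at 1 CPM in all libraries -0.28 and -0.02. The median size without regard to sign was 0.57 for the members and 0.28 for all genes, and 0.52 and 0.26 at 1 CPM in all libraries. These are bulk values, in which fewer cells expressing a gene and less RNA per cell cannot be told apart.

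**Figure D1:**
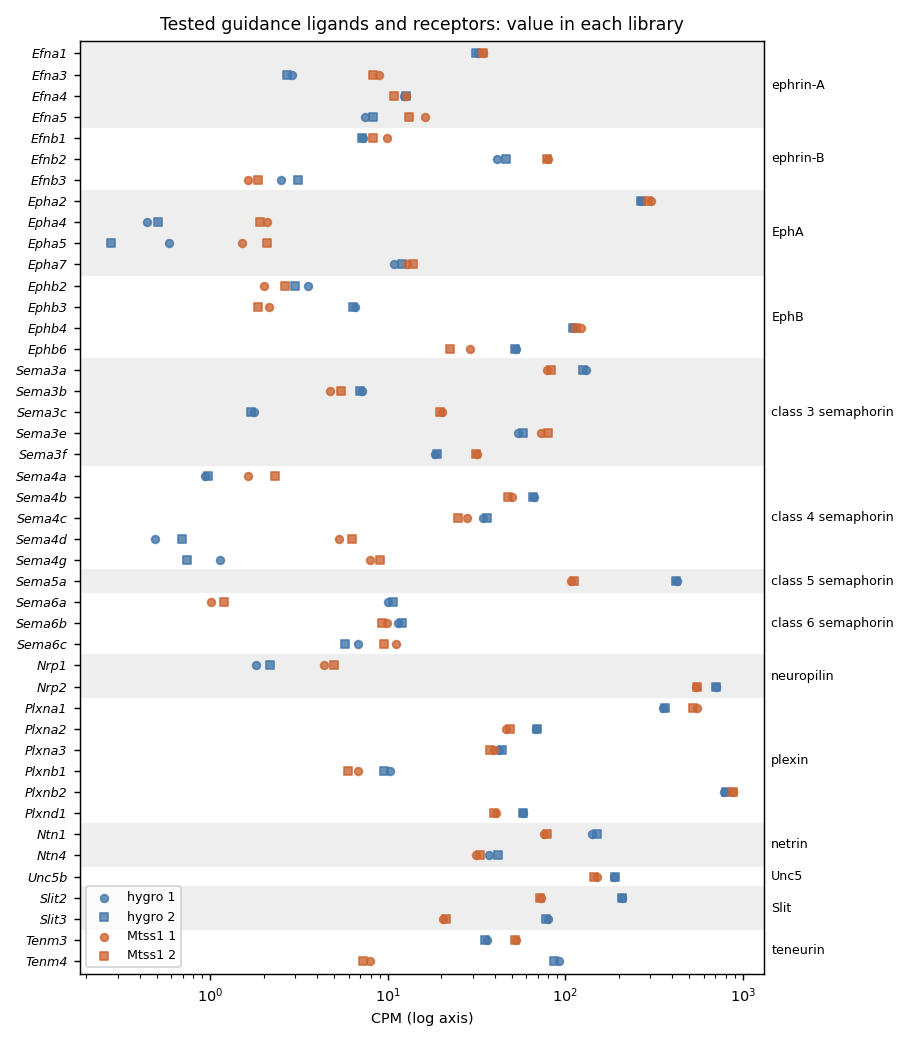
Value of each of the 44 tested guidance genes in each of the 4 libraries, in CPM on a log axis, with hygro in blue and Mtss1 in orange, grouped by family. The libraries of a group lie close together, and the colours overlap only for Efna4.

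**Figure D2:**
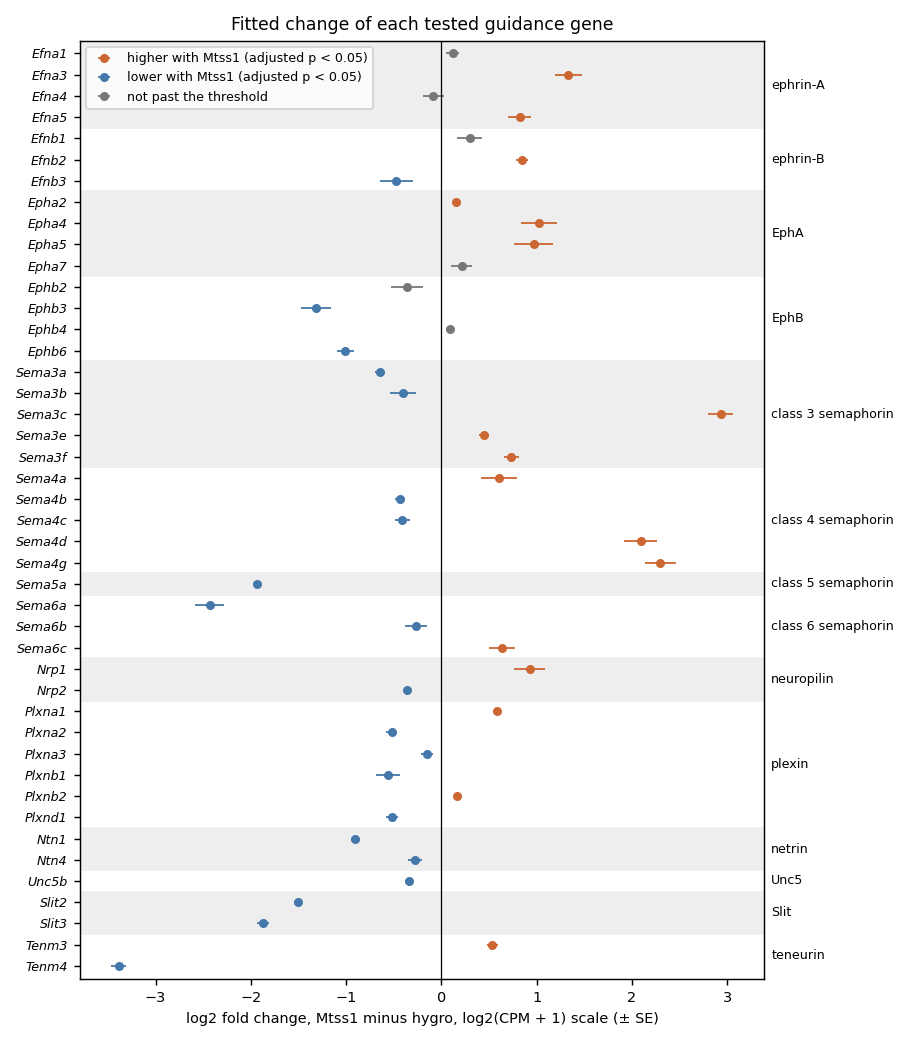
Fitted log2 fold change (Mtss1 minus hygro, log2(CPM + 1) scale) with its standard error for the same 44 genes. The points run from -3.39 for Tenm4 to 2.93 for Sema3c, and 7 families hold called genes on both sides of 0.

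The RefSeq promoters of strongly changed members are printed to show the kind of start site that these genes have. They are the 2 tested members with the largest rise and the 2 with the largest fall among those with a single entry in the promoter table, without Sema6a. That gene fell more than Sema5a and Slit3 and was left out because sequence from its chromosome is not printed here. Sema4g is one of the low genes named above, which the hygro libraries alone would not have brought past the filter. Each line runs 5′ to 3′ on the gene's strand, from 250 bases before the RefSeq start to 50 after it (GRCm38.p6), and capitals mark GC boxes, GGGCGG on either strand. All 4 lie on the plus strand: Sema3c at chr5:17574566-17574865, Sema4g at chr19:44989094-44989393, Sema5a at chr15:32244563-32244862 and Slit3 at chr11:35121206-35121505. GENCODE starts the gene at 17574281 for Sema3c, 44989101 for Sema4g and 35121224 for Slit3. By that annotation the Sema3c window lies wholly inside the gene, and those of Sema4g and Slit3 lie mostly inside it.
Sema3c: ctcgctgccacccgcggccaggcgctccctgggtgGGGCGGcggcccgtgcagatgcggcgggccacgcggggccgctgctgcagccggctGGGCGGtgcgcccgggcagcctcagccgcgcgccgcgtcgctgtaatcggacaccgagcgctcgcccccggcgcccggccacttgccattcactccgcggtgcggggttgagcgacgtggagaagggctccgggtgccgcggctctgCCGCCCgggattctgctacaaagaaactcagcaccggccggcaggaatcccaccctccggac
Sema4g: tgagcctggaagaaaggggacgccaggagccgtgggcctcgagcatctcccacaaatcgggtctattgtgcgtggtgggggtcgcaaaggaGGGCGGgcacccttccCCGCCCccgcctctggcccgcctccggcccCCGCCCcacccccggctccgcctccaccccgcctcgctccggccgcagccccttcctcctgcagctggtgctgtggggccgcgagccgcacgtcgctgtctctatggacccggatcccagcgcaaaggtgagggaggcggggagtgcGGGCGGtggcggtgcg
Sema5a: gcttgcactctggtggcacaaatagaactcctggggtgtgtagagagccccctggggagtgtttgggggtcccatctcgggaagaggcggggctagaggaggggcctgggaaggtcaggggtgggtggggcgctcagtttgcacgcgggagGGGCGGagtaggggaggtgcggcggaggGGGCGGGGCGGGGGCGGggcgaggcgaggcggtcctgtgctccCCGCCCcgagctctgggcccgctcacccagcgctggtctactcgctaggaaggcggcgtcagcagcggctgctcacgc
Slit3: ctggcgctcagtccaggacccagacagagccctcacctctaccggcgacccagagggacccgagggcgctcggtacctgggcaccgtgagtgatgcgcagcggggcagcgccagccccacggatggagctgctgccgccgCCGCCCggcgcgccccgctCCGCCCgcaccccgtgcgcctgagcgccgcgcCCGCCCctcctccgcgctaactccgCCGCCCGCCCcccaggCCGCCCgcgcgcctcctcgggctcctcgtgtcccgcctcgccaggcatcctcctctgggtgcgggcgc

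The 2 promoters of genes that rose and the 2 of genes that fell were alike in composition. They are 75.7%, 73.3%, 71.3% and 78.3% G and C for Sema3c, Sema4g, Sema5a and Slit3, and hold 3, 4, 5 and 6 GC boxes, with overlapping matches counted each. No match to the TEAD core GGAATG, the AP-1 site TGANTCA or the kappaB consensus was in these 4 windows on either strand. Over all members with an entry, a GC box was in the promoter of 14 of 15 that rose and 15 of 17 that fell, beside 70.1% of 9137 tested genes with an entry and 35.7% of all 32851 promoters of that length. The TEAD core was in 4 of 15 and 3 of 17 (14.1% of tested genes, 14.7% of all promoters), the AP-1 site in 1 of 15 and 2 of 17 (6.30% and 7.81%), and the kappaB consensus in 0 of 15 and 2 of 17 (8.30% and 5.81%). The members that rose include Sema4g and other low genes that were tested only because of the Mtss1 libraries, so the shares of that group rest in part on them. A match of letters is no binding site, and a window without one says nothing about the factor.

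Of 7 tested ephrin genes 3 rose, 1 fell and 3 did not pass. Of 4 tested ephrin-A genes, which encode ligands held by a lipid anchor, Efna3 and Efna5 rose and Efna1 and Efna4 did not pass. Efna3 read 2.89 and 2.72 CPM in hygro 1 and 2 and 8.95 and 8.21 CPM in Mtss1 1 and 2, a log2 fold change of 1.33 ± 0.14 (SE, limma adjusted p = 3.5e-08). Efna5 read 7.45 and 8.28 CPM and then 16.2 and 13.2 CPM (0.82 ± 0.12, adjusted p = 3.9e-06). For both genes each Mtss1 library was above each hygro library. Efna3 lies between 2 other ephrin-A genes on chromosome 3 (mm10), from 89313899 to 89322965, with Efna1 32.8 kb to one side and Efna4 10.4 kb to the other. Efna1 had means of 31.6 and 34.4 CPM (limma adjusted p = 0.14) and Efna4 of 12.5 and 11.7 CPM (adjusted p = 0.52), so within this cluster the middle gene passed the test and its neighbours did not.

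Among the transmembrane ephrin-B genes, Efnb2 read 41.0 and 46.2 CPM in hygro and 79.5 and 78.4 CPM in Mtss1, a rise of 0.85 ± 0.06 (limma adjusted p = 2.5e-11). It is the ligand of Ephb4 in the pairing of arteries and veins. Efnb3 fell from a mean of 2.81 to 1.74 CPM (-0.47 ± 0.18, adjusted p = 0.022), a call that is lost without hygro 2 (adjusted p = 0.22) or Mtss1 1 (0.10). Efnb1 had means of 7.17 and 9.05 CPM (0.29 ± 0.13) and sat at the threshold: its limma adjusted p was 0.051, and it passed under 6 of 12 alternative settings, one of them without Mtss1 2 (0.022).

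Of the 2 EphA receptor genes at 1 CPM in all libraries 1 rose, and of 4 tested EphB genes 2 fell; Epha4 and Epha5, also tested, passed the filter through the Mtss1 libraries alone. Epha2, the receptor with by far the highest level of its class, read 267 and 266 CPM in hygro and 304 and 291 CPM in Mtss1, a small rise of 0.16 ± 0.04 (limma adjusted p = 6.2e-04). Epha4 read 0.441 and 0.506 CPM and then 2.08 and 1.90 CPM (1.02 ± 0.19, adjusted p = 7.0e-05). Epha5 read 0.588 and 0.276 CPM and then 1.51 and 2.08 CPM (0.97 ± 0.20, adjusted p = 2.6e-04). Both were low in hygro, at 6 to 12 reads a library, and their ratios of mean CPM were 4.21 and 4.16. Epha7 did not pass, with means of 11.4 and 13.4 CPM. Since Epha2 supplied 97.7% of the summed EphA level per kb of exon in hygro and 96.9% in Mtss1, the makeup of the class was nearly alike in both groups.

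Ephb3 read 6.52 and 6.35 CPM in hygro and 2.14 and 1.84 CPM in Mtss1, a fall of 3.23 times by mean CPM (-1.31 ± 0.16, limma adjusted p = 1.4e-07). Ephb6, which encodes a receptor without kinase activity, read 52.7 and 51.9 CPM and then 28.9 and 22.4 CPM (-1.01 ± 0.08, adjusted p = 5.9e-10). Both had every Mtss1 library below every hygro library. Ephb4, the main receptor of the class, had means of 111 and 119 CPM (0.09 ± 0.04, adjusted p = 0.068), and passed without Mtss1 2 (0.022) and under both other scalings. Ephb2 had means of 3.26 and 2.32 CPM (-0.36 ± 0.17, adjusted p = 0.067, and 0.045 without Mtss1 2). With Ephb6 lower, Ephb4 made up 61.3% of the summed EphB level per kb in hygro and 77.9% in Mtss1.

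All 14 tested semaphorin genes passed the test, 7 higher and 7 lower, where 66.1% of all genes tested passed. Among the 11 at 1 CPM in all libraries it was 4 higher and 7 lower, beside 31.2% and 34.7% of all genes at that level. Among the secreted class 3 genes, Sema3c, a ligand of neuropilins and plexin D1, rose most: 1.76 and 1.70 CPM in hygro and 20.1 and 19.6 CPM in Mtss1, which is 11.4-fold by mean CPM (2.93 ± 0.13, limma adjusted p = 1.1e-14). Sema3f, a ligand that prefers neuropilin 2, read 18.3 and 18.9 CPM and then 31.6 and 31.5 CPM (0.73 ± 0.08, adjusted p = 4.4e-08). Sema3e, which binds plexin D1 directly, rose from a mean of 55.8 to 76.5 CPM (0.45 ± 0.06). Sema3a, the founding repellent of the class and a ligand of neuropilin 1, went the other way, from 130 and 125 CPM to 79.2 and 82.9 CPM (-0.65 ± 0.05, adjusted p = 2.7e-11). Sema3b fell from a mean of 7.05 to 5.10 CPM (-0.40 ± 0.14, adjusted p = 0.014), but not past the threshold without hygro 1 (0.062) or Mtss1 1 (0.10). Some genes of the class that lie on the same chromosome moved apart. Sema3a and Sema3e, 422.7 kb from each other on chromosome 5, changed in opposite directions, as did Sema3b and Sema3f, 72.3 kb from each other on chromosome 9.

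Of 5 tested transmembrane class 4 genes, Sema4b and Sema4c fell, and the 3 that rose were low in hygro and could be tested only because they are high in Mtss1. Sema4g read 1.13 and 0.736 CPM in hygro and 7.94 and 8.99 CPM in Mtss1, 9.09-fold by mean CPM (2.30 ± 0.17, limma adjusted p = 4.6e-11). Sema4d, a ligand of B-class plexins also known as CD100, read 0.490 and 0.690 CPM and then 5.29 and 6.25 CPM, 9.78-fold (2.09 ± 0.18, adjusted p = 5.6e-10). Sema4a read 0.931 and 0.966 CPM and then 1.64 and 2.32 CPM (0.60 ± 0.19, adjusted p = 0.0084). The fitted change of such low genes depends on the pseudocount. For Sema4d it was 0.95 with a pseudocount of 5, 3.10 with 0.1 and 3.25 in limma-voom, and it passed in each. Sema4b fell from a mean of 66.0 to 48.6 CPM (-0.44 ± 0.06) and Sema4c from 35.3 to 26.3 CPM (-0.41 ± 0.08), with no overlap of the libraries.

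Sema5a, a transmembrane semaphorin with thrombospondin repeats, was the semaphorin of highest level in hygro and fell 3.86 times. It read 425 and 421 CPM in hygro 1 and 2 and 107 and 112 CPM in Mtss1 1 and 2 (-1.94 ± 0.04, limma adjusted p = 2.9e-21). The gene lies on chromosome 15 from 32244810 to 32696341 (mm10). Sema6a, a membrane ligand of A-class plexins, read 9.99 and 10.7 CPM and then 1.01 and 1.19 CPM, 9.40 times lower (-2.43 ± 0.15, adjusted p = 4.4e-12). Sema6c rose, from 6.81 and 5.75 CPM to 11.1 and 9.52 CPM (0.64 ± 0.13, adjusted p = 2.2e-04). Sema6b had means of 11.7 and 9.56 CPM and a call that is not firm (-0.27 ± 0.11, adjusted p = 0.047): it was lost when any library was left out (0.061 to 0.18) and under both other scalings.

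Summed over the family per kb of exon, semaphorin RNA was 68.3 and 68.4 in hygro and 51.2 and 51.1 in Mtss1. Sema5a made up 33.1% of that sum in hygro and 11.5% in Mtss1. The shares of Sema3e, Sema3f and Sema3c went from 8.80%, 5.24% and 0.355% to 16.1%, 11.9% and 5.43%. Sema4b kept a like share, 17.1% and 16.8%; in Mtss1 it and Sema3e had the highest shares, and their libraries overlap.

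All 8 tested plexin and neuropilin genes passed, 3 higher and 5 lower, none by 2-fold on the log2(CPM + 1) scale. Of all genes tested 66.1% passed. Plxnb2, the receptor gene with the highest level of all, rose from 779 and 798 CPM to 882 and 884 CPM (0.16 ± 0.03, limma adjusted p = 1.4e-04). Plxna1 rose from 356 and 364 CPM to 549 and 527 CPM (0.58 ± 0.03, adjusted p = 1.5e-12). The other 4 tested plexins fell. Plxna2 read 68.5 and 69.3 CPM and then 46.5 and 48.9 CPM (-0.52 ± 0.06). Plxnd1, the receptor of Sema3e, read 57.9 and 57.4 CPM and then 40.4 and 39.4 CPM (-0.52 ± 0.06). Plxnb1, a receptor of Sema4d, read 10.2 and 9.53 CPM and then 6.81 and 5.94 CPM (-0.56 ± 0.13). Each of these 3 had no overlap between groups and a limma adjusted p of 5.8e-04 or lower. Plxna3 was near the threshold (means of 43.1 and 38.6 CPM, adjusted p = 0.039), and without hygro 1, hygro 2 or Mtss1 2 its adjusted p was 0.0524, 0.215 and 0.196.

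The neuropilins moved in opposite directions from very different levels. Nrp2 read 709 and 701 CPM in hygro and 547 and 551 CPM in Mtss1 (-0.36 ± 0.03, limma adjusted p = 1.7e-09). Nrp1, the co-receptor of Sema3a, read 1.81 and 2.16 CPM and then 4.35 and 4.9991 CPM (0.93 ± 0.16, adjusted p = 3.6e-05). Nrp2 still made up 99.7% of the neuropilin level per kb in hygro and 99.0% in Mtss1.

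Both tested Slit genes fell, while no Robo gene reached 1 CPM. Slit2 read 207 and 207 CPM in hygro and 72.9 and 72.0 CPM in Mtss1, 2.86 times lower (-1.50 ± 0.04, limma adjusted p = 1.5e-18). Slit3, whose promoter is printed above, read 79.7 and 77.7 CPM and then 20.4 and 21.2 CPM, 3.79 times lower (-1.87 ± 0.06, adjusted p = 6.5e-17). Slit2 lies on chromosome 5 from 47983138 to 48307733 and Slit3 on chromosome 11 from 35121224 to 35708507 (mm10). The libraries of each group lay close together for both genes and far from those of the other group. Of the Robo genes, Robo1 had the most reads, 4 and 5 in hygro and 14 and 16 in Mtss1, which is 0.952 CPM at most. It was under the filter; without a filter it was higher with Mtss1 (0.66 ± 0.10, limma adjusted p = 0.0038). Robo2 and Robo3 had at most 2 reads in any library and Robo4 had none.

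Both tested netrin genes and the tested Unc5 gene were lower. Ntn1, a secreted laminin-like cue, read 141 and 151 CPM in hygro and 75.6 and 78.6 CPM in Mtss1, 1.89 times lower (-0.91 ± 0.05, limma adjusted p = 9.6e-14). Ntn4, a basement membrane netrin, fell from a mean of 39.4 to 32.3 CPM (-0.28 ± 0.07, adjusted p = 0.0016). Unc5b, a receptor known for signalling apoptosis when it lacks netrin, fell from 187 and 189 CPM to 151 and 145 CPM (-0.34 ± 0.04, adjusted p = 8.7e-08). Neogenin (Neo1), no member by symbol, fell by 0.12 ± 0.04 from a mean of 248 to 228 CPM (adjusted p = 0.0085). Dcc, the other classical netrin receptor, was at 0 in hygro and at most 0.0630 CPM in Mtss1.

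Of 2 tested teneurins 1 rose and 1 fell. Tenm4 read 91.7 and 86.3 CPM in hygro and 7.94 and 7.26 CPM in Mtss1, 11.7 times lower, the largest fall of any member (-3.39 ± 0.08, limma adjusted p = 1.0e-19). Tenm3 rose from 36.4 and 35.4 CPM to 53.0 and 51.9 CPM (0.53 ± 0.06, adjusted p = 8.7e-08). Per kb of exon, Tenm4 made up 54.6% of the teneurin sum in hygro and 6.58% in Mtss1, and Tenm3 45.3% and 93.3%. Tenm1 and Tenm2 had at most 2 reads in any library. The latrophilins that bind teneurins also changed, in both directions. Adgrl1 rose from a mean of 58.8 to 105 CPM (0.83 ± 0.05). Adgrl2 fell from 61.7 to 42.3 CPM (-0.53 ± 0.06) and Adgrl3 from 23.0 to 5.33 CPM (-1.92 ± 0.12).

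The 27 members under the filter were at low values throughout. Of these, 6 were listed at 0 in all libraries (Epha6, Epha10, Ephb1, Robo4, Sema5b and Unc5d) and 19 were above 0 but under 1 CPM in each. The remaining 2, Epha1 and Sema7a, reached 1 CPM in Mtss1 1 alone, at 1.39 and 1.26 CPM. The fit without a filter could not hold the 6 at 0. In it 17.3% of all 22310 genes were higher with Mtss1, and 4.35% of the 9800 that were under the filter. Of the 19 and the 2 members, 4 passed, all higher: Robo1, Epha1 (limma adjusted p = 0.0091), Sema7a (0.018) and Sema6d (0.021). Sema6d had 1 read in each hygro library and 4 and 6 reads in Mtss1. The others were Sema3d, Sema3g, Sema4f, Epha3, Epha8, Efna2, Ntn5, Plxna4, Plxnb3, Plxnc1, Slit1, Unc5a and Unc5c, besides the Robo and teneurin genes named above.

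Levels can be compared between genes only per length, here as CPM per kb of annotated exon. That length joins all annotated exons of a gene and can exceed that of the transcript in use. It is 25.4 kb for Slit2, 18.7 kb for Sema5a and 6.07 kb for Slit3. Ranks between genes depend on it, and ranks with another length were not tested. In hygro the highest ligands were Ntn1 (22.4 and 24.0) and Sema5a (22.7 and 22.5), whose libraries overlap, followed by Efna1 (17.5 and 17.1) and Slit3 (mean 13.0). In Mtss1 the order was Efna1 (18.9 and 18.7), Ntn1 (mean 12.3) and Efnb2 (11.6 and 11.4), followed by Ntn4 and Sema4b, with means of 8.63 and 8.60 that do not differ beyond their spread. Sema5a went from rank 2 to rank 9 among the 34 ligands, Slit3 from 4 to 14 and Slit2 from 8 to 15, while Efnb2 went from 11 to 3. Among receptors, Plxnb2 was first in both groups (means of 102 and 114), and Nrp2, Epha2 and Plxna1 took ranks 2, 3 and 4 in hygro and 4, 2 and 3 in Mtss1.

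**Figure D3:**
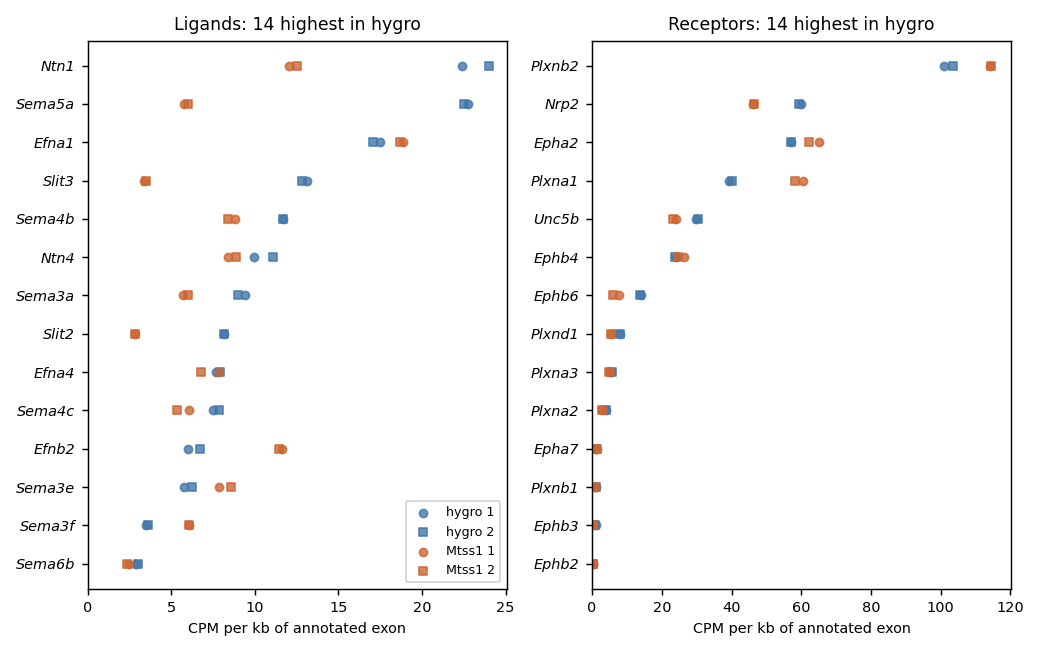
CPM per kb of annotated exon in each library (hygro blue, Mtss1 orange) for the 14 ligands and the 14 receptors with the highest hygro mean, in that order. Sema5a, Slit3, Slit2 and Ntn1 lie well to the left in Mtss1, and Efnb2, Sema3e and Sema3f, which were called higher, to the right; among receptors Plxnb2 stays highest.

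Ligands and their textbook receptors were set side by side in 24 pairs written from general knowledge, 20 of them with both partners tested. The pairs were chosen with earlier results of these data known. The partners were called in opposite directions in 10 pairs, both lower in 4, both higher in 1, and in 5 at least 1 partner did not pass. Of all genes tested, 31.9% were higher and 34.2% lower. Several genes stand in more than 1 pair, and all pairs come from the same 4 libraries, so the counts are a description. Higher Sema3c, Sema3e and Sema3f stood beside lower Plxnd1 and Nrp2, and lower Sema5a beside higher Plxna1. For Sema3a the ligand fell and Nrp1 rose. Both partners fell for Ntn1 with Unc5b, Ntn1 with Neo1, Sema6a with Plxna2 and Tenm4 with Adgrl2. Both rose for Sema4d with Plxnb2. Sema4d passed the filter through the Mtss1 libraries alone, so that it had to differ. It is also the ligand in 1 of the opposite pairs, with Plxnb1.

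**Figure D4:**
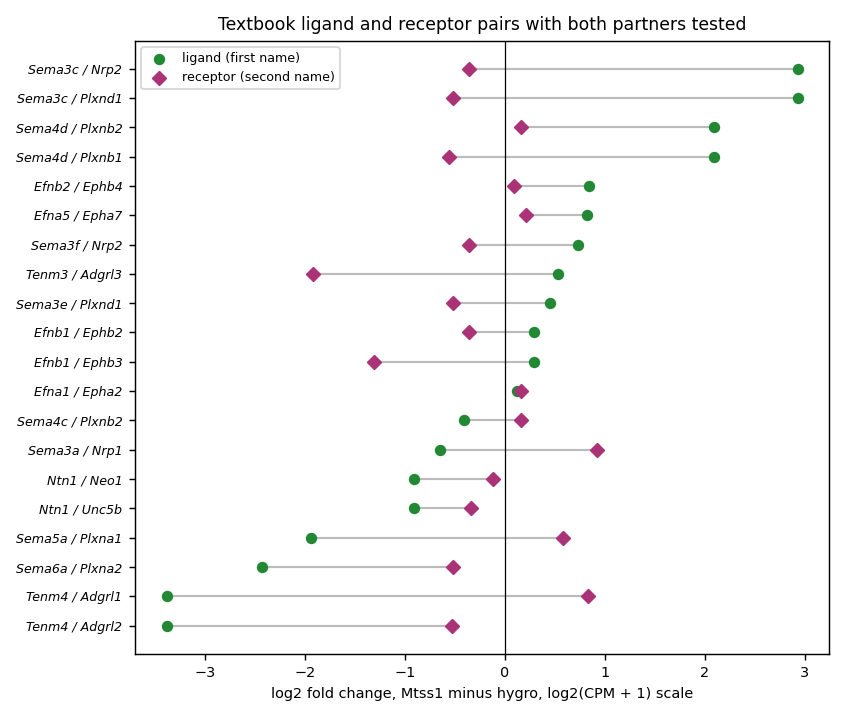
Log2 fold change (Mtss1 minus hygro, log2(CPM + 1) scale) of the ligand (circle) and the receptor (diamond) in the 20 pairs with both partners tested, ordered by the ligand. Ligand changes span -3.39 to 2.93, and receptor changes -1.92 to 0.93.

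Genes that work downstream or beside these receptors were read from a list of 67 written from general knowledge. That list, too, was chosen with earlier results of these data known. Of 51 tested, 21 were higher, 15 lower and 15 not past the threshold, that is 41.2% and 29.4% beside 31.9% and 34.2% of all genes, with a median log2 fold change of 0.03. Of the genes named next, Tiam1 passed the filter through the Mtss1 libraries alone and Flrt1 through the hygro libraries alone, so that they had to differ. The largest rises were in Tiam1, an activator of Rac (0.331 to 11.9 CPM by means, 3.27 ± 0.17), the actin-binding LIM protein gene Ablim1 (3.54 to 38.6 CPM, 3.13 ± 0.11) and Flrt2, whose product binds Unc5 receptors and latrophilins (2.65 to 28.2 CPM, 3.003 ± 0.13). Limk1, the kinase that inactivates cofilin (1.11 ± 0.08), the Slit-Robo GTPase-activating protein gene Srgap3 (0.97 ± 0.05) and Rnd2, a GTPase that binds plexins (0.89 ± 0.11), followed. The largest falls were in Ngef, which encodes ephexin, an exchange factor used by EphA receptors (14.7 to 2.86 CPM, -2.05 ± 0.15), Adgrl3, the collapsin response mediator gene Dpysl3 (211 to 92.0 CPM, -1.19 ± 0.04), Flrt1 (1.85 to 0.273 CPM, -1.17 ± 0.20), Flrt3 (8.25 to 3.72 CPM, -0.98 ± 0.15) and Farp1 (-0.59 ± 0.04). Each of these 12 genes had an adjusted p of at most 2.1e-05 in limma. The 3 Flrt genes thus did not move together, nor did the collapsin response mediators: Dpysl2 rose by 0.49 ± 0.07 where Dpysl3 fell.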

How the data were processed

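The deposited table holds CPM for 50600 genes in 4 libraries, a unit read from the values, because no source used here states the authors' scaling. Column totals run from 982877 to 1016220; divided by 1000000 each, they multiply to 1. The tools STAR, RSEM and FastQC 0.11.2 and the build mm10 are named, per the submitters' processing notes, without roles, settings or strandedness. The smallest regular step in each column gave the CPM of 1 read and hence reads per library; 79.6% to 80.5% of nonzero values were whole reads within 0.005, so they were treated as scaled expected counts.

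Groups came from sample titles. Genes at 1 CPM or more in at least 2 libraries (12510) were fitted on log2(CPM + 1) by lmFit and eBayes (trend) of limma 3.58.1, R 4.3.3, with Benjamini-Hochberg adjustment over all of them and a threshold of 0.05. The pseudocount of 1 makes fold changes of low genes too small, so ratios of mean CPM are given too. Coordinates and exon lengths (the union of annotated exons) are from GENCODE M21, which is of the build named above and matched all 71 members; levels per kb depend on that annotation. Promoters are from RefSeq (62 members matched). The fit was run on simulated data with known changes in few genes, which is a check of the code and not of the calls made here. Close paralogs, overlapping genes and antisense genes can share reads; the 3 antisense genes with member-like symbols, all at Plxna4, read 0.

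The members, lists and pairs were chosen with earlier results of these data known. Members that passed with a change of at least 0.5 are given by library, the others by means or counts; of the downstream list, up to 6 genes a direction are named. Alternatives were limma-voom, 2 other scalings, no filter or 1 CPM in all libraries, pseudocounts of 0.1 and 5, a threshold of 0.01, the replicate number as a block, and each library left out.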

Additional observations from a re-analysis of the deposited data

How the results depend on the processing

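Counts of called members stayed within 1.5 times the reported 17 higher and 21 lower under all 13 alternatives, at 13 to 21 higher and 17 to 21 lower, as did those of the downstream list (19 to 22 and 13 to 17). Of 515 values of single members under an alternative, 485 kept their direction and their side of the threshold, 19 lost the call, 10 gained it and 1 turned: Efna4, not called in any setting, ran from -0.19 without Mtss1 1 to 0.015 without Mtss1 2. The calls that were lost belong to Sema3b, Sema6b, Efnb3 and Plxna3, and those gained to Efnb1, Ephb2 and Ephb4, all with changes under 0.5. With a single Mtss1 library left, Sema4a, Sema4d, Epha4 and Epha5 fell under the filter and were not tested, and the lone library is assumed to vary like the others. With the replicate number as a block, 18 members were higher and 21 lower. Libraries of the same number did not deviate together (r = -0.02 across genes). That value cannot tell whether libraries of the same number were prepared together. Depth limits the genes under 1 CPM, where 3 reads are 0.138 to 0.189 CPM.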

Other observations

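The deposited table annotates each gene with GO terms, which gives a list of axon guidance genes that neither the symbols nor the downstream list above chose. Of 88 such genes 45 were tested: 20 were higher, 15 lower and 10 did not pass, which is 44.4% and 33.3% beside 31.9% and 34.2% of all genes, with a median log2 fold change of 0.13. The largest changes, named after their values were seen, were in Enah, an Ena/VASP actin elongation factor (2.10 to 80.3 CPM), Tgfb2 (3.74 to 20.2 CPM) and the nuclear receptor gene Nr4a3 (0.861 to 3.62 CPM) upward, and in Gas1, a Hedgehog co-receptor (179 to 30.0 CPM), Ispd (8.38 to 1.35 CPM) and Artn, a neurotrophic ligand (4.73 to 0.641 CPM), downward. Artn passed the filter through the hygro libraries alone. Nr4a3, at 1.08 CPM in hygro 1, would not have passed it without the Mtss1 libraries. Rac1, the GTPase on which many guidance receptors act, rose from 210 to 312 CPM (0.57 ± 0.04, limma adjusted p = 4.3e-12). Members and these genes were read in the same 4 libraries, so they are no independent support for one another.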
